A study of Mus musculus with 12 samples.

Results

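The 31 genes described here mark microglia at rest, in their response to damage, or in both, and were measured in whole spinal cord of mice with a mutation in Gars, the gene of glycyl-tRNA synthetase. They are given by name, and all 31 were found among the 38924 genes of the deposited tables. Cords came from 12 mice aged 8 weeks, of which 6 were wild type (WT) and 6 carried 1 P278KY allele of Gars (heterozygous, called P278KY here), with 3 mice of each sex per genotype, all on a B6J;CAST background. No cell type was isolated, so each value is an average over the cord. Each mouse is named by its genotype, its sex and the number in its label.

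Microglia are the resident macrophages of the brain and spinal cord. At rest they carry receptors for nucleotides, chemokines and growth factors (P2ry12, P2ry13, Cx3cr1, Csf1r), and they make most of the C1q that starts the classical complement cascade. When neurons degenerate or myelin breaks down, microglia are known to lower many of these receptor genes and, through the lipid receptor Trem2 and its partner Tyrobp, to raise a set that includes Apoe, Lpl, Itgax, Clec7a, Gpnmb, Cst7 and Lgals3. Some of these genes are also made elsewhere: Apoe and Axl by astrocytes, Cd9 by several kinds of glia, Lpl by muscle and fat, and Lgals3 by macrophages and epithelia of many organs. In bulk tissue, fewer cells of a type and less RNA per cell cannot be told apart.

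The factor PU.1, made from Spi1, controls many microglial genes and recognises sites with the core letters GAGGAA. Promoters of 3 genes are shown because the results turn on them or on their group: Apoe, the only gene of the set whose genotype groups did not overlap, C1qb, a chain of C1q, and Gpnmb, the only gene of the set called in females. Each window is the 250 bases before a transcription start from RefSeq (build GRCm38.p6), written 5′ to 3′ on the gene's own strand, with GAGGAA or its reverse complement in capitals.
Apoe, chr7:19699189-19699438, minus strand: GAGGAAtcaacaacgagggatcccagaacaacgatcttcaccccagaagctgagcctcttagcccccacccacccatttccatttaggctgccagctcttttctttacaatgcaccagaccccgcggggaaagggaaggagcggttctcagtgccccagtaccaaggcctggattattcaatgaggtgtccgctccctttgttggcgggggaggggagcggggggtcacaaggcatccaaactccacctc
C1qb, chr4:136886201-136886450, minus strand: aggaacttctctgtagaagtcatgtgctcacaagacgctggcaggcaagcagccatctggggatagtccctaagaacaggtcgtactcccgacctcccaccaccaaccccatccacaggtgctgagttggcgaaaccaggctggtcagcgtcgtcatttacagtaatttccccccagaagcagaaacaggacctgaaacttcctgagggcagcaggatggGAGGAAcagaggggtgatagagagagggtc
Gpnmb, chr6:49036268-49036517, plus strand: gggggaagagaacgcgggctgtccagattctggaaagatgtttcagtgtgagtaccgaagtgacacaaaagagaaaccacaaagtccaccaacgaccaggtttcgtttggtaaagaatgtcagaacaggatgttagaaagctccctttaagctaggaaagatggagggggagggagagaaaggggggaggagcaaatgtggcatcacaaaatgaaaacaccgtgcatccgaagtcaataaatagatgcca
The Apoe and C1qb windows hold the motif 1 time each, and these letters are not in the Gpnmb window. RefSeq promoters were matched for 23 of the 31 genes, with 29 starts between them. GAGGAA was found on either strand in 14 of these 29 windows (48.3%), from 12 genes, against 7639 of 32851 windows of the same length over all genes in the table (23.3%). A match of letters is a description and not a binding site.

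Levels within a gene are given as CPM, the reads of a gene for every 1000000 of its library after scaling. Levels of different genes are compared as TPM, the authors' deposited values, which are divided by transcript length and lack that scaling. Libraries held 26982140 to 39339999 expected counts. A gene was called where edgeR's quasi-likelihood test, with sex in the model, gave a Benjamini-Hochberg adjusted p under 0.05 over all 17980 tested genes. By this rule 956 genes were called, 425 higher and 531 lower in P278KY, and on log2(TPM + 1) values the split was 1358 higher and 248 lower. WT female 1 held RNA of lung and muscle: the surfactant gene Sftpc was at 1040 TPM there and at 0.09 to 1.46 in the other 11 mice, and 16 muscle genes summed to 12060 TPM, against 3188, 4685 and 1895 TPM in mice 2, 3 and 4 and 207 to 499.3 in mice 5 to 12. Clock-controlled genes (8 measured) summed to 310.4 to 354.4 TPM in mice 9 to 12 and to 423.4 to 506.9 TPM in mice 1 to 8. Sensory ganglion genes (8 measured) summed to 17.3 to 52.86 TPM in mice 7, 10 and 11 and to 5.08 to 16.8 TPM in the other 9.

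None of the genes was silent. All 31 had a TPM above 0 in every mouse, and the microglial surface gene Tmem119 lay at 13.96 TPM ± 2.28 (SD, n = 12). Apoe, the lipid carrier, was the most abundant at 2974 TPM ± 336, followed without overlap by the tetraspanin Cd9 at 176.8 TPM ± 21.8. The next 6 genes, C1qa, C1qb, Csf1r, C1qc, Tyrobp and Axl, lay between 55.78 and 41.07 TPM, and each overlapped the next in its range over the mice. Laptm5, a lysosomal protein of blood-derived cells, stood alone at 29.76 TPM ± 2.35. From Cx3cr1 at 21.16 TPM down to Irf8 at 4.698 TPM, 18 genes overlapped their neighbours in this order. The lowest 4 were disease-associated genes: Clec7a at 1.737 TPM, Gpnmb at 1.076, Cst7 at 0.4867 and Itgax at 0.43.

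Cst7, which encodes the protease inhibitor cystatin F, fell under the count filter, leaving 30 of the 31 genes in the test. Its counts were 1 to 14 per mouse, 41 in all over the WT mice and 38 over the P278KY mice, and an exact two-sided permutation test of its CPM over 924 arrangements gave p = 0.669.

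No gene of the set passed the test between the genotypes. Of the 30 tested genes, 0 were called higher and 0 lower in P278KY by edgeR's test, where 5.32% of all tested genes were called in either direction, 2.36% higher and 2.95% lower. At an unadjusted p under 0.05 there were 3 (Apoe, Gpnmb and Clec7a), where 20.2% of all genes reached that level. The fitted log2 change was above 0 for 10 genes and below 0 for 20, with a median of -0.07, against -0.0031 over all tested genes. The counts were 17 above and 13 below on log2(TPM + 1) and on log2(TPM + 0.1) values, and 16 above and 14 below without mice 7, 10 and 11. Without mice 1, 7, 10 and 11, a selection made after the data were seen, they were 22 above and 9 below of 31 tested, with a median of 0.079. The lean below 0 thus turned in these alternatives. It stayed without WT female 1, at 9 above and 22 below of 31 tested (median -0.083), and with voom sample weights, at 8 and 22. On log2(TPM + 1) values the median of the set was 0.020, below the 0.062 of all tested genes. On log2(TPM + 0.1) values these medians were 0.022 and 0.073. The 95% interval of the change lay within 1.5-fold in either direction for 24 of the 30 genes and within 1.3-fold for 20. With all 12 mice it excluded a 2-fold rise for all 30, but the fitted changes of Lpl and Lgals3 were larger without WT female 1, at 0.52 (SE 0.22) and 0.57 (SE 0.21).

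**Figure D1:**
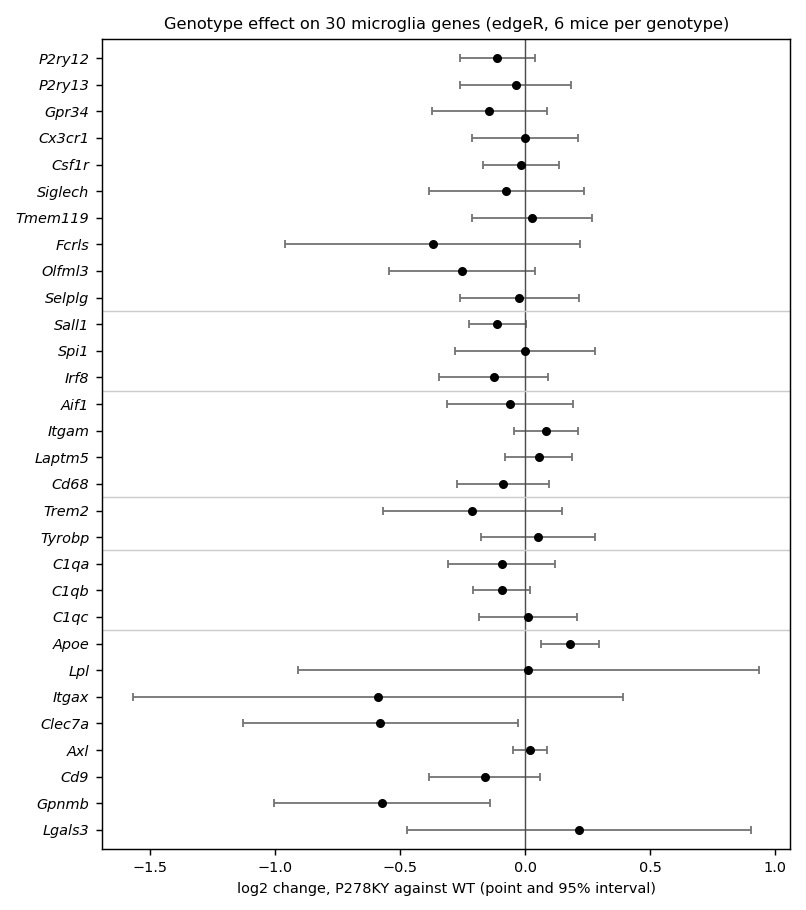
Log2 change of each tested gene in P278KY against WT (point) with its 95% interval (bar) from edgeR, 6 mice per genotype, grouped from top to bottom into receptors, transcription factors, general myeloid genes, the Trem2 pair, C1q chains and disease-associated genes. All intervals of the first 5 groups but that of Fcrls lie within 1.5-fold, and they are widest for Itgax (-1.57 to 0.39), Lpl (-0.91 to 0.94) and Lgals3 (-0.47 to 0.90).

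The receptors and surface proteins of resting microglia showed no called change. Fitted changes of these 10 genes ran from -0.37 (Fcrls) to 0.03 (Tmem119), 9 of them below 0, and the smallest adjusted p was 0.322 by edgeR. P2ry12, the ADP receptor that steers microglial processes to injury, lay at 20.47, 24.74, 22.82, 20.63, 23.86 and 22.34 CPM in WT mice 1, 2, 10, 5, 11 and 12. In P278KY mice 3, 4, 9, 6, 7 and 8 it lay at 20.88, 20.27, 20.29, 20.18, 18.52 and 24.64 CPM. Of the 6 P278KY mice 4 lay below the lowest WT value and the other 2 inside the WT range. The P2ry12 log2 change was -0.11 (SE 0.07, interval -0.26 to 0.04). Cx3cr1, the fractalkine receptor, had means of 37.89 CPM ± 5.52 in WT and 37.77 ± 4.93 in P278KY (SD, n = 6), with 1 high mouse, WT female 10 at 48.7 CPM. Csf1r, the growth factor receptor on which microglia depend for survival, had means of 89.28 ± 10.3 and 88.01 ± 7.38 CPM. The means of Tmem119 were 15 ± 1.85 and 15.25 ± 2.65 CPM. For Cx3cr1, Csf1r and Tmem119 the upper bounds of the log2 change were 0.21, 0.13 and 0.27 and the lower bounds -0.21, -0.17 and -0.21. P2ry13, a second ADP receptor, differed by -0.04 (SE 0.10), and Gpr34, a lysophosphatidylserine receptor, by -0.14 (SE 0.11). Siglech, a sialic acid binding lectin, differed by -0.08 (SE 0.14), Selplg, the P-selectin ligand, by -0.02 (SE 0.11), and Olfml3, a secreted matrix protein, by -0.25 (SE 0.13). Olfml3 was highest in WT female 1, at 28.87 CPM against 14.08 to 22.23 in the others. Its WT mean was 20.35 CPM with that mouse and 18.64 without it, against 16.95 in P278KY. With 1 mouse left out the Olfml3 change was -0.32 to -0.14.

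Some of these genes lie inside or beside others, and whether reads were counted by strand is not given in the sources used here. In GENCODE M21 (GRCm38), P2ry12 (chromosome 3, 59216272 to 59262871, minus strand) and P2ry13 (59207892 to 59210882) are neighbours that both lie within Med12l, and Gpr34 lies within Cask on the X chromosome. Irf8 lies within Gm20388. Exons of Csf1r share 873 bases with Hmgxb3 on the opposite strand, and exons of Itgam share 3450 bases with Gm49368 on the same strand. Smaller overlaps on the opposite strand are those of Cd9 (218 bases with Gm26728), Cx3cr1 (78 with Gm33858) and P2ry12 (9 with Med12l). The values of genes with such overlaps are less certain than the rest, and the overlaps of Itgam and Csf1r are the largest.

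Fcrls, an Fc receptor-like scavenger protein of microglia (chromosome 3, 87250758 to 87263738), had the widest spread of the receptors and differed between the sexes in its pattern. In WT females 1, 2 and 10 it lay at 14.45, 19.62 and 20.25 CPM, and in P278KY females 3, 4 and 9 at 9.395, 8.531 and 8.837 CPM. In WT males 5, 11 and 12 it lay at 11.9, 10.65 and 11.83 CPM, and in P278KY males 6, 7 and 8 at 16.9, 8.262 and 16.48 CPM. Thus 5 mice, the WT females and P278KY males 6 and 8, were at 14.45 or more, and the other 7 at 11.9 or less. The log2 change was -1.02 in females (SE 0.23, edgeR adjusted p = 0.0944) and 0.28 in males (SE 0.23, adjusted p = 0.662). The difference between the sexes was -1.30 (SE 0.33, unadjusted p = 0.0024, adjusted p = 0.565) and did not pass. Both were called in 1 of the 12 fits that left out 1 mouse, that without P278KY male 7, the low male of its group. There the adjusted p of Fcrls was 0.00195 for the female change and 0.00198 for the difference between the sexes. In that fit 117 of 18263 tested genes were called in females and 42 for the difference between the sexes. With all 12 mice these counts were 103 and 0 of 17980.

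The transcription factors that set microglial identity were not called. Sall1, a repressor that holds microglia in their resting programme, lay at 50.98 to 60.79 CPM in WT and 47.86 to 59.52 in P278KY, a log2 change of -0.11 (SE 0.05, edgeR adjusted p = 0.267). In males the Sall1 values did not overlap, 50.98, 60.79 and 53.75 CPM in WT and 47.86, 49.28 and 50 in P278KY, where 11.6% of all tested genes were without overlap and lower. Spi1 had a mean of 3.689 CPM ± 0.742 in WT and 3.692 ± 0.555 in P278KY. On the TPM scale the Spi1 means were 4.792 ± 0.957 and 5.988 ± 1.19, and the cause of this difference between the scales was not tested. Irf8, an interferon regulatory factor needed for microglial development, had means of 6.143 ± 1.11 and 5.64 ± 0.95 CPM. All 3 intervals lay within 1.5-fold.

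The general myeloid genes, shared with other macrophages, were not called. Laptm5 lay at 24.52 to 32.83 CPM in WT and 28.74 to 32.8 in P278KY, and its interval of -0.08 to 0.19 holds 0. Itgam, the CD11b chain, differed by 0.08 (SE 0.06), Aif1, the calcium-binding protein IBA1 that stains microglia, by -0.06 (SE 0.12), and Cd68, a lysosomal glycoprotein of phagocytes, by -0.09 (SE 0.09). A rise of IBA1 or CD68 RNA of 1.5-fold lies outside these intervals.

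Trem2, the lipid receptor that drives the damage response, and Tyrobp, the adaptor that signals for it, were not called. Trem2 (chromosome 17, 48346401 to 48354147, plus strand) lay at 6.581, 6.879, 10.53, 5.687, 10.61 and 7.382 CPM in WT mice 1, 2, 10, 5, 11 and 12. It lay at 6.341, 7.041, 9.044, 5.924, 5.915 and 7.03 CPM in P278KY mice 3, 4, 9, 6, 7 and 8. The log2 change was -0.21 (SE 0.17, edgeR adjusted p = 0.527), and without mice 9 to 12 it was 0.06 (SE 0.11). Mice 9 to 12, of both genotypes, were the 4 highest, at 7.382 to 10.61 CPM against 5.687 to 7.041 CPM in mice 1 to 8. It was the only 1 of the 30 genes (3.33%) in which mice 9 to 12 all lay above the others, where 0.423% of all tested genes did so. The part of the clock-gene difference between these sets of mice in the Trem2 values was not tested. Tyrobp lay at 9.555 to 10.15 CPM in 5 WT mice and at 6.728 in WT male 5, and at 8.326 to 12.21 in P278KY mice, a change of 0.05 (SE 0.11).

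The 3 chains of C1q are encoded side by side on the minus strand of chromosome 4, C1qb at 136880129 to 136886187, C1qc at 136889804 to 136893065 and C1qa at 136895917 to 136898803. Their summed TPM was 151.6 ± 21.7 in WT and 152.3 ± 10.6 in P278KY (SD, n = 6). C1qa lay at 21.73 to 36.97 CPM in WT and 22.98 to 28.44 in P278KY, C1qb at 24.92 to 29.07 and 22.31 to 27.69, and C1qc at 20.38 to 32.69 and 22.28 to 28.2. For C1qa and C1qc all P278KY values fell inside the WT range. For C1qb, P278KY mice 4, 7 and 8 lay below the lowest WT value, at 22.71, 22.31 and 23.34 CPM, and the others inside the WT range. Log2 changes of C1qa, C1qb and C1qc were -0.09 (SE 0.10), -0.09 (SE 0.05) and 0.01 (SE 0.09), and all 3 intervals lay within 1.5-fold.

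Across the 12 mice the median Pearson r of log2(CPM + 0.1) was 0.65 over the 3 pairs of C1q chains, against 0.332 over the 45 pairs of the 10 resting receptors. Among all pairs the highest were Axl with Lgals3 (0.824), Siglech with Trem2 (0.806), and C1qa with C1qc, Spi1 with Tyrobp and P2ry12 with Selplg (each 0.795). Without WT female 1 these were 0.748, 0.803, 0.817, 0.892 and 0.811. Other pairs then came next after Spi1 with Tyrobp. They were Trem2 with Clec7a (0.846, from 0.593 in all 12), Cd68 with C1qa (0.845, from 0.488) and Siglech with Clec7a (0.844, from 0.604). The 12 points share their libraries and both genotypes, so these values describe these mice. WT female 10 and WT female 1 held the highest value of 9 genes each, and WT male 5 the lowest of 10.

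**Figure D2:**
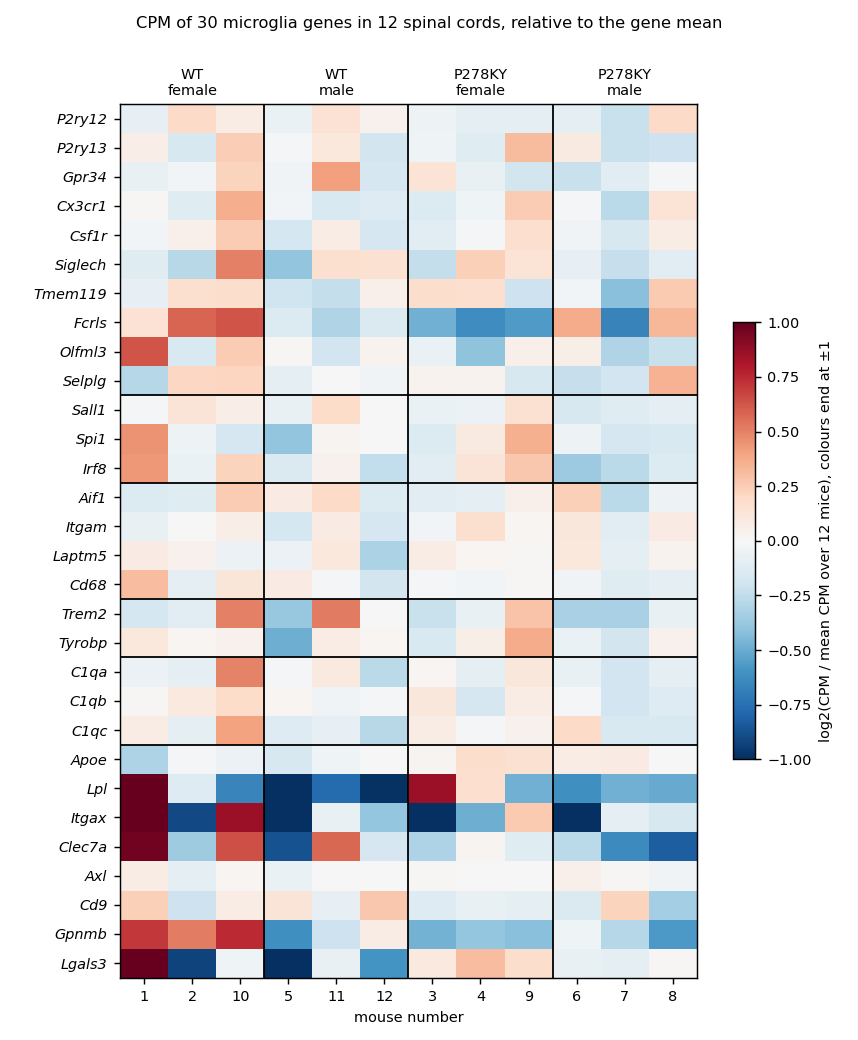
Log2 of the CPM of each of the 30 tested genes over its mean in the 12 mice (red above, blue below the mean), with mice in columns by genotype and sex and genes in rows by role. Most rows are pale, and deep colours fall on the disease-associated genes, on Fcrls, and on WT female 1, which held the highest value of 9 genes.

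No rise of the disease-associated genes was called. Of the 8 that were tested, 4 had a fitted change above 0 and 4 below, with a median of -0.07, and 0 were called. Of their intervals 3 of the 8 lay within 1.5-fold, and that of Axl was the narrowest of the 30 genes. On the TPM scale the group's sum was 2627 to 3160 in WT and 3233 to 3707 in P278KY, and Apoe makes up most of that sum. TPM lacks the scaling of CPM, and on log2(TPM + 1) values the median change over all tested genes was 0.062.

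Apoe came closest to a call. The gene (chromosome 7, 19696109 to 19699188, minus strand) lay at 997.6, 1225, 1183, 1106, 1198 and 1235 CPM in WT mice 1, 2, 10, 5, 11 and 12. In P278KY mice 3, 4, 9, 6, 7 and 8 it lay at 1259, 1391, 1374, 1301, 1307 and 1235 CPM. Every P278KY mouse was above every WT mouse, though WT male 12 and P278KY male 8 were within 1 CPM of each other. Apoe was the only 1 of the 30 genes without overlap, where 1.73% of all tested genes were without overlap and higher, and 0 of the 30 were without overlap and lower (2.0% of all genes). The log2 change was 0.18 (SE 0.05, interval 0.06 to 0.30), a 1.13-fold difference, with an edgeR adjusted p of 0.0729 that misses the threshold. It passed with a DESeq2 Wald test (adjusted p = 0.0154, 8.99% of all genes called) and with voom sample weights (0.0318, 8.16%), in limma on log2(TPM + 1) and log2(TPM + 0.1) values (0.0233 and 0.0227, 8.93% and 9.02%), and without WT female 1 (0.14, SE 0.04, adjusted p = 0.0466, 7.6%). On the 2 TPM scales 1358 and 1374 of all tested genes were called higher, and 248 lower on each. The Apoe change was 0.24 in females (SE 0.08) and 0.12 in males (SE 0.08), and neither passed alone.

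Apoe is also made by astrocytes. Of 12 astrocyte genes, with a list median of 0.06, 2 rose: the glutamate transporter Slc1a3 (log2 0.37, SE 0.03, edgeR adjusted p = 6.4e-05) and the angiotensin precursor Agt (0.44, SE 0.07, adjusted p = 0.00465). Another fell, Slc7a10, a neutral amino acid transporter, by 0.18 in log2 (SE 0.05, adjusted p = 0.0494), and this call was lost in 10 of the 12 fits that left out 1 mouse (adjusted p up to 0.107). The 12 genes summed to 4526 to 5422 TPM in WT and 5212 to 6098 TPM in P278KY, and 0 of them were at 0. Much of that sum was Gfap and Aldoc, with means of 1506 and 1336 TPM over all mice. Neither was called (edgeR adjusted p = 0.0962 and 0.662). The part of astrocytes in the Apoe difference was not tested.

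Lpl, the lipase that frees fatty acids from lipoproteins (chromosome 8, 68880491 to 68907448), depended on which mice were included. It lay at 94.55 CPM in WT female 1, at 27.31, 18.85, 13.84, 17.46 and 15.07 in WT mice 2, 10, 5, 11 and 12, and at 53.95, 33.52, 21.32, 19.49, 21.41 and 21.02 in P278KY mice 3, 4, 9, 6, 7 and 8. Mice 1 to 4, with the most muscle RNA, were the 4 highest. The log2 change was 0.01 over all mice (interval -0.91 to 0.94) and 0.52 without WT female 1 (SE 0.22, edgeR adjusted p = 0.21). In mice 5 to 12, a set chosen with earlier results of these data known, where muscle genes summed to at most 499.3 TPM, every P278KY mouse was above every WT mouse in Lpl and in Apoe. These were 2 of the 30 genes, and 5.63% of all tested genes were without overlap and higher in those 8 mice. The Lpl change there was 0.36 (SE 0.08, adjusted p = 0.0525) and was not called. Adipocyte genes (11) summed to 271.1, 92.26, 210.4 and 169.5 TPM in mice 1 to 4 and 26.21 to 73.37 in mice 5 to 12, and the part of fat in the Lpl values was not tested.

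Lgals3, the galectin of activated phagocytes (chromosome 14, 47367751 to 47386160), was also highest in WT female 1, at 7.309 CPM. The other WT mice 2, 10, 5, 11 and 12 were at 1.762, 3.251, 1.283, 3.184 and 2.222 CPM, and P278KY mice 3, 4, 9, 6, 7 and 8 at 3.586, 4.155, 3.783, 3.186, 3.15 and 3.382. The P278KY values all lay inside the WT range, and without WT female 1 the highest 4 of these 6 lay above the highest remaining WT mouse. The log2 change was 0.22 (SE 0.31) with all mice and 0.57 without WT female 1 (SE 0.21, edgeR adjusted p = 0.122), neither called. It was called without mice 1, 7, 10 and 11 (0.999, SE 0.19, adjusted p = 0.0344), a selection made after the data were seen. In that run 375 of 18546 tested genes were called.

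WT female 1 also held the highest Itgax, the CD11c chain, at 2.646 CPM against 0.3236 to 1.61 in the others, and the highest Clec7a, the beta-glucan receptor Dectin-1, at 3.208 against 0.9017 to 2.57. Markers of other macrophages stood out in the same library. Border-associated macrophage genes (12) summed to 228.4 TPM there against 24.4 to 37.18, and 9 of the 12 were highest in it. Most of that sum was Cbr2, at 170 TPM there against 0.66 to 5.02 in the others. Mrc1 was at 3.67 TPM there against 1.53 to 2.3, and Stab1 at 13 against 7.36 to 11.6. Whether the Cbr2 RNA came from macrophages or from lung tissue was not tested. Alveolar macrophage genes (12) summed to 69.84 TPM against 18.13 to 44.99, with 8 of the 12 highest in it, and Marco was at 0.4 TPM. The summed levels of these lists in P278KY mice were 24.4 to 37.18 and 23.94 to 44.99 TPM. Lung epithelium genes summed to 3320 TPM in WT female 1 and 98.83 to 174.4 in the others, with Hopx high in all 12 mice. The part of these cells in the Itgax, Clec7a and Lgals3 values of WT female 1 was not tested. Log2 changes were -0.59 for Itgax (SE 0.45) and -0.58 for Clec7a (SE 0.25, edgeR adjusted p = 0.22), and -0.25 (SE 0.40) and -0.44 (SE 0.25, adjusted p = 0.333) without that mouse. Without mice 1, 7, 10 and 11 they were above 0, at 0.30 for Itgax (SE 0.46) and 0.079 for Clec7a (SE 0.24). GENCODE M21 lists Clec7a as a polymorphic pseudogene, a locus that is coding in some mouse strains.

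**Figure D3:**
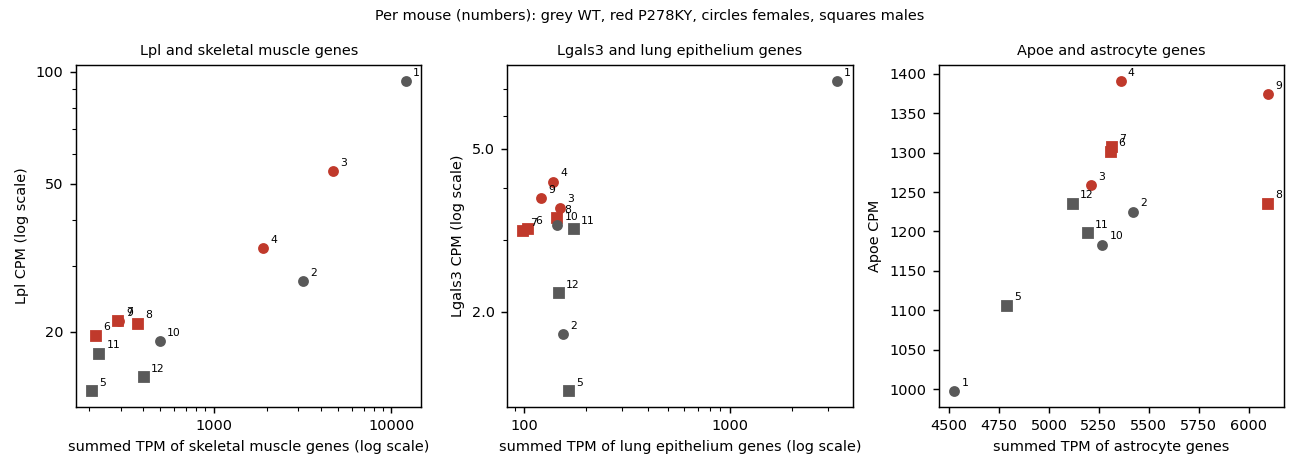
Each point is 1 mouse, labelled by its number (grey WT, red P278KY, circles females, squares males), with CPM of Lpl, Lgals3 or Apoe on the vertical axis and the summed TPM of muscle, lung epithelium or astrocyte genes on the horizontal axis (log axes in the first 2 panels). WT female 1 stands at 94.55 CPM of Lpl and 12060 TPM of muscle genes, and at 3320 TPM of lung genes.

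Gpnmb, a transmembrane glycoprotein of lipid-laden phagocytes (chromosome 6, 49036546 to 49070929, plus strand), was the only gene of the set called in a single sex, and it was lower in P278KY. In females it lay at 3.373, 2.948 and 3.468 CPM in WT mice 1, 2 and 10 and at 1.494, 1.586 and 1.547 CPM in P278KY mice 3, 4 and 9. In males it lay at 1.353, 1.793 and 2.185 CPM in WT mice 5, 11 and 12 and at 2.016, 1.704 and 1.393 CPM in P278KY mice 6, 7 and 8. The 3 WT females thus stood above the other 9 mice. In females Gpnmb fell by 1.08 on the log2 scale (SE 0.20, edgeR adjusted p = 0.0405), 1 of 30 genes called where 0.573% of all tested genes were. In males the change was -0.06 (SE 0.20, adjusted p = 0.955), and 0 of 30 genes were called in males, 1 of them (Sall1) at an unadjusted p under 0.05, against 1.55% of all genes called. The difference between the sexes was -1.02 (SE 0.29, unadjusted p = 0.00378, adjusted p = 0.653) and did not pass, so the effect was not shown to differ between them. Over all mice the change was -0.57 (SE 0.20, adjusted p = 0.121). Counts behind these values were low, 39 to 112 per mouse. The female call was lost when any 1 of WT females 1, 2 and 10, P278KY females 3, 4 and 9, P278KY males 6 and 7 or WT male 11 was left out, with adjusted p up to 0.157. In females, Fcrls and Gpnmb were the 2 of 30 genes without overlap and lower, where 7.71% of all tested genes were.

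**Figure D4:**
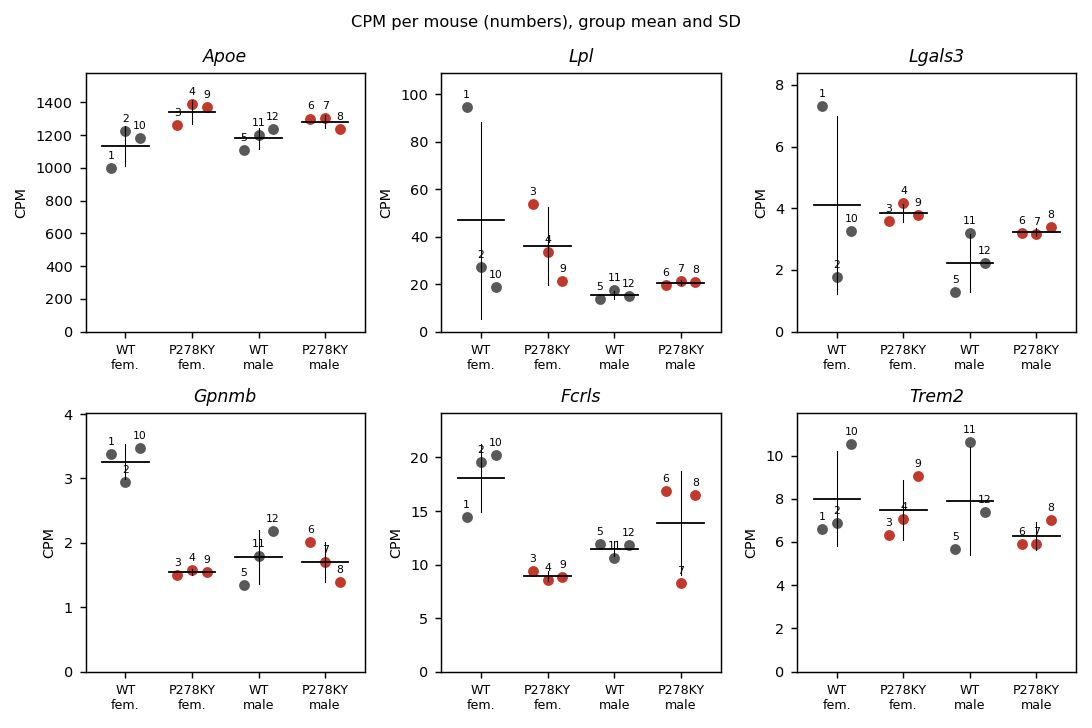
CPM of 6 genes in each mouse (points, labelled by mouse number) in the 4 groups, with the group mean (horizontal bar) and SD (vertical line, n = 3). WT females stand above the other groups in Gpnmb, WT female 1 stands apart at 94.55 CPM in Lpl and 7.309 in Lgals3, and mice 9 to 12 are the highest in Trem2.

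The receptor tyrosine kinase Axl and the tetraspanin Cd9 completed the disease-associated genes. Axl, which binds Gas6 and clears dying cells, was the steadiest gene of the set at 73.36 to 82.41 CPM in WT and 76.3 to 81.04 in P278KY, a log2 change of 0.02 (SE 0.03, interval -0.05 to 0.09). Cd9 lay at 84.64 to 117.5 CPM in WT and 77.03 to 113.7 in P278KY, a change of -0.16 (SE 0.10), and the groups overlapped.

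Sex made an uncalled difference, and its size depended on which mice were included. Females had the higher fitted value for 27 of the 30 genes, with a median log2 of 0.13, against 0.0008 over all tested genes. Of the 30, 0 were called, against 16 of all tested genes (0.089%). At an unadjusted p under 0.05 there were 3, Irf8 (0.34, SE 0.10, edgeR adjusted p = 0.345), C1qb (0.12, SE 0.05) and Lpl (1.204, SE 0.42), where 8.95% of all genes reached that level. Mice 1 to 4, the highest in Lpl and in muscle RNA, are all females, and without them the Lpl change was 0.17 (SE 0.09). With 1 mouse left out it was 0.71 to 1.37, lowest without WT female 1. Over the set, females were higher for 29 of 31 tested genes without mice 1 to 4, with a median of 0.22 and 0 called. In that run 12 genes of the set had an unadjusted p under 0.05, and 1097 of all 18463 tested genes did. Without WT female 10 females were higher for 23 of 30, with a median of 0.078. The difference of the genotype effect between the sexes was called for 0 of all tested genes, and 665 genes (3.7%), 2 of them in the set, had an unadjusted p under 0.05.

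Other genes of the same pathways were described by lists. Of all tested genes 2.95% were called lower by edgeR and 2.36% higher. Of 34 other resting microglia genes 1 fell, the integrin Itgb5 (63.25 CPM ± 7.13 in WT, 52.59 ± 3.13 in P278KY, log2 -0.27, SE 0.07, edgeR adjusted p = 0.0383), and the list's median was 0.0038. The Itgb5 call was lost in 6 of the 12 fits that left out 1 mouse (adjusted p up to 0.0884). Of 27 tested genes of a wider disease-associated list 4 fell and 0 rose, with a median of -0.04. The secreted phosphoprotein Spp1 fell by 0.72 on the log2 scale (114.8 ± 5.67 to 69.71 ± 3.73 CPM, adjusted p = 2.47e-06). The lysosomal proteases Ctsd and Ctsz fell by 0.21 and 0.26, and the protease inhibitor Serpine2 by 0.18. With 1 mouse left out the Serpine2 call was lost in 8 of 12 fits (adjusted p up to 0.0889), and those of Ctsd and Ctsz in 0. These genes are not made by microglia alone: Spp1, for one, is abundant in motor neurons.

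Every call among the ligands, signalling genes and further lists given next was lower in P278KY, where 2.95% of all tested genes were called lower. Of 13 ligands, Lgals1, a galectin, fell by 0.82 (31.68 ± 3.31 to 17.97 ± 1.71 CPM, edgeR adjusted p = 5.26e-05), and Gas6, the ligand of Axl, fell by 0.20 (177.2 ± 5.92 to 153.9 ± 8.28 CPM, adjusted p = 0.00509). Of 16 genes of Trem2 and Csf1r signalling, Dap fell by 0.39. Of 16 other complement genes, Cd59a, an inhibitor of the membrane attack complex, fell by 0.27 (adjusted p = 0.0291). Cd59a was no longer called in 5 of 12 fits with 1 mouse left out (adjusted p up to 0.0796). C4b, which acts just after C1q, had means of 90.84 ± 17.4 and 118.3 ± 11.4 CPM and did not pass (adjusted p = 0.0866). Of 14 MHC genes 14 had a fitted change below 0 and 1 fell, H2-DMb1 of class II peptide loading, by 0.93 (3.986 ± 0.674 to 2.102 ± 0.427 CPM, adjusted p = 0.00147). The MHC sum in WT female 1 was 938.3 TPM against 393.6 to 550 in the others. Of 18 interferon-responsive genes Stat2 fell by 0.15 (adjusted p = 0.044), and this call was lost in 11 of the 12 fits that left out 1 mouse (adjusted p up to 0.101). By the same test 0 of 14 inflammatory mediators were called, and of these the endotoxin receptor Tlr4 came closest (-0.58, SE 0.16, adjusted p = 0.0562). None of the 17 cell division genes was called, though 16 of them had a fitted change above 0, with a list median of 0.19.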

How the data were processed

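Polyadenylated RNA of whole spinal cord was sequenced in paired 75-base reads. The submitters' processing notes name Bowtie2 2.2.0 for alignment and RSEM 1.2.12 for quantification. Neither those notes nor the labels state the genome build or the annotation. The authors deposited a table for each mouse. It holds expected counts, which RSEM estimates and which need not be whole, per the file headers. It also holds deposited TPM and FPKM values, both divided by length and library size, and FPKM was not used.

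Expected counts were rounded. Genes were kept by filterByExpr over the 4 groups and scaled by TMM (R 4.3.3, edgeR 4.0.16). The genotype and sex effects came from edgeR's quasi-likelihood F test on sex plus genotype, and effects within a sex and the interaction from a model of 4 group means, with Benjamini-Hochberg adjustment at 0.05. Intervals are 95% from the fit. DESeq2 1.42.0 and limma 3.58.1 were alternatives, with log2(TPM + 1) and log2(TPM + 0.1) in limma. The scripts were tested on simulated data. Correlations used log2(CPM + 0.1). Precision is set by 6 mice per genotype and 26982140 to 39339999 counts per library.

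The genes and the 22 lists (338 entries, 336 matched) were chosen with earlier results of these data known. All 31 genes of the set are named. Of each other list, up to 4 called genes with the smallest p, or 1 with the smallest p where none passed, were to be named, and for other cell types also the 2 with the highest TPM. Not every gene picked by this rule is named in the text. Positions came from GENCODE M21 by gene identifier. No sample column was left unused.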

Additional observations from a re-analysis of the deposited data

Results flagged for a closer look

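The spread within each genotype was tested gene by gene in its 6 mice: the gap of the highest or lowest mouse to the next, over the whole range, was compared with Dixon's critical value for 6 samples. Of 62 such groups for the 31 genes 6 passed, where chance gives about 1 in 20. In WT mice these were Lpl (ratio 0.833, WT female 1 at 94.55 CPM), Lgals3 (0.673, WT female 1 at 7.309 CPM), Cx3cr1 (0.727, WT female 10 at 48.7 CPM) and Tyrobp (0.826, WT male 5 low at 6.728 CPM). In P278KY mice these were Sall1 (0.698, at 59.52 CPM) and Trem2 (0.64, at 9.044 CPM), both from P278KY female 9.

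Summed TPM of marker lists was tested in the same way, and 6 lists stood apart in WT, each through WT female 1. With the 62 groups of genes this made 80 groups, of which 12 passed, and not all of the 22 lists were tested. The ratios were 0.991 for lung epithelium, 0.969 for border-associated macrophages, 0.796 for alveolar macrophages, 0.749 for skeletal muscle, 0.73 for adipocytes and 0.713 for MHC genes. In the border-associated macrophage list Cbr2 made up 170 of the 228.4 TPM of WT female 1.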

How the results depend on the processing

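In P278KY against WT over both sexes no gene of the set was called lower in any alternative run. In that comparison 1 gene of the set (Apoe) was called higher with the DESeq2 Wald test, both TPM scales, voom sample weights and a term for mice 9 to 12 (chosen after seeing the data), and 1 (Lgals3) without mice 1, 7, 10 and 11 (also chosen after seeing the data). With 1 mouse left out the count was 0 to 1, with 1 (Apoe) without WT female 1. Over the alternatives with 1 mouse left out the adjusted p of Apoe ran from 0.0466 to 0.16. In females the count was 0 to 1, and it was 0 without mice 1 to 4 and without mice 9 to 12. For the difference between the sexes it was 0 to 1, with 1 (Fcrls) without P278KY male 7, without mice 7, 10 and 11 and without mice 1, 7, 10 and 11. In these runs, in that order, 42 of 18263, 28 of 18147 and 37 of 18546 tested genes were called for that difference. In males 1 gene (Cd9, log2 -0.44) was called without mice 1, 7, 10 and 11, where 126 of 18546 tested genes were called.

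The number of all tested genes called moved from 956 to 1617 with DESeq2, 1606 and 1622 with a TPM offset of 1 and 0.1, 1467 with voom, 557 without mice 1 to 4, 253 without mice 7, 10 and 11, 84 without mice 9 to 12 and 375 without mice 1, 7, 10 and 11. With 1 mouse left out it was 542 to 1385, and it fell by over 1.5 times without P278KY female 4 (603), P278KY male 6 (542), P278KY male 7 (628) or WT male 11 (623).

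On TPM, which lacks the scaling of CPM, the median log2 change over all tested genes was above 0. It was 0.073 with an offset of 0.1 and 0.062 with an offset of 1, against -0.0031 in the main fit. Uncalled log2 changes changed sign as follows, and the cause was not tested. With an offset of 0.1 on TPM they were P2ry13 0.033, Cx3cr1 0.053, Csf1r 0.061, Siglech 0.016, Selplg 0.047, Aif1 0.05001 and Cd68 0.0095, and with an offset of 1 they were 0.028, 0.051, 0.0597, 0.013, 0.044, 0.045 and 0.0075. With a term for mice 9 to 12 they were P2ry13 0.027, Cx3cr1 0.052, Csf1r 0.031, Siglech 0.096 and Lpl -0.28. Without mice 1, 7, 10 and 11 they were P2ry13 0.12, Cx3cr1 0.15, Csf1r 0.094, Siglech 0.14, Irf8 0.043, Aif1 0.10, Cd68 0.029, Trem2 0.044, C1qa 0.078, Itgax 0.30 and Clec7a 0.079. Without mice 7, 10 and 11 they were P2ry13 0.075, Cx3cr1 0.11, Csf1r 0.086, Siglech 0.14, Selplg 0.061, Spi1 -0.023, Aif1 0.096, Trem2 0.073, C1qa 0.071 and Lpl -0.22. Without mice 9 to 12 they were Gpr34 0.016, Csf1r 0.013, Siglech 0.23, Selplg 0.073, Spi1 -0.028, Trem2 0.056, Lpl -0.069 and Gpnmb in males 0.34. Without mice 1 to 4 they were Cx3cr1 0.016, Csf1r 0.012 and Tmem119 -0.031, with voom Tmem119 -0.0046 and C1qc -0.0054, with a filter of 1 CPM in 6 libraries Spi1 -0.0018, and without a sex term Lpl -0.13. With 1 mouse left out the ranges that crossed 0 were Cx3cr1 -0.052 to 0.072, Csf1r -0.051 to 0.025, Siglech -0.15 to 0.037, Tmem119 -0.055 to 0.089, Selplg -0.12 to 0.017, Spi1 -0.063 to 0.092, Laptm5 -0.00021 to 0.091, Tyrobp -0.022 to 0.098, C1qa -0.14 to 0.0028, C1qc -0.059 to 0.088, Lpl -0.13 to 0.52, Axl -0.0019 to 0.037 and Gpnmb in males -0.22 to 0.12.

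No paired analysis was possible because the mouse numbers are not shared between the groups. Depth limits Cst7, Itgax and Clec7a most.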

Other observations

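Genes of other immune cells were measured in the same cords. Of 14 genes of neutrophils and blood monocytes 12 had a fitted log2 change above 0 and 0 were called by edgeR, with S100a8, a calcium-binding protein of neutrophils, at 24.12 CPM ± 10.4 in WT and 38.82 ± 5.71 in P278KY (SD, n = 6, adjusted p = 0.185). The list summed to 312.4 to 756.7 TPM in WT and 582 to 971.4 TPM in P278KY. None of the 7 tested lymphocyte genes was called, Ighm of B cells coming closest (log2 -0.55, SE 0.16, adjusted p = 0.0839). None of the 6 tested dendritic cell genes was called, with Batf3 closest (0.73, SE 0.21, adjusted p = 0.0598). None of 11 tested border-associated macrophage genes was called, and of 8 tested alveolar macrophage genes the protease Ctsk fell by 0.54 on the log2 scale (adjusted p = 0.0437). Ctsk was no longer called in 10 of 12 fits with 1 mouse left out (adjusted p up to 0.0991).

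Of 12 Schwann cell genes 5 fell, led by the myelin protein gene Pmp2 from 26.03 CPM ± 7.95 in WT to 1.592 ± 0.385 in P278KY (edgeR adjusted p = 1.04e-05). Of 10 genes listed for sensory ganglion neurons, the neurofilament genes Nefh and Prph fell by 0.67 and 0.87, and P2rx3, an ATP-gated channel, rose by 1.81. Nefh had means of 1259 CPM ± 178 in WT and 788.9 ± 32.9 in P278KY, and Prph of 69.86 ± 13.2 and 38.4 ± 7.57. The 8 sensory ganglion genes summed highest in P278KY male 7, at 52.86 TPM. Prph was at 53.75 CPM in that mouse and at 34.39 to 36.69 in the other P278KY mice. Its Nefh, at 767.3 CPM, lay inside their range of 746 to 835.9. WT female 1 had the lowest sum, 5.08 TPM, and the lowest WT values of Nefh (913.8 CPM) and Prph (45.24 CPM). Which neurons the falls of Nefh and Prph came from was not tested. Of 10 fibroblast genes the collagen-binding Lum fell by 0.74 (adjusted p = 0.0416). Lum was no longer called in 8 of 12 such fits (adjusted p up to 0.0974), and neither was the Schwann cell gene Pmp22 in 8 of 12 (up to 0.0884). None of 12 endothelial, 10 tested adipocyte, 16 muscle or 5 tested lung epithelium genes was called.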
